A study of Mus musculus with 778 samples.

Results

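GO1 oocytes are the early growing oocytes of the mouse ovary, 30 to 45 µm in diameter. Their members were taken by name: 51 of the 223 cells in the deposited table of RNA counts carry the stage name GO1, and all 51 were kept. RNA of single oocytes from wild type ICR mice was measured at 5 stages, set by diameter. The 46 NGO cells were non-growing oocytes under 20 µm from mice of 3 to 4 days, whereas GO1 cells, 26 GO2 cells (50 to 55 µm), 44 GO3 cells (60 to 65 µm) and 56 fully grown FGO cells (over 70 µm) came from mice of 3 to 4 weeks. Oocytes were washed free of somatic cells and picked singly, and their barcoded cDNA was pooled into 4 libraries. The cell names carry the stage and a number but neither the animal nor the library, so each stage entered as 1 pooled sample: no test between stages was possible, and stage, animal and library cannot be told apart.

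An oocyte leaves the resting pool when its flat pregranulosa cells become cuboidal, and it then grows inside a primary follicle while still arrested in prophase of meiosis. During growth it transcribes heavily, stores mRNA for maturation and for the first embryonic divisions, lays down the egg coat, and exchanges signals with granulosa cells through cadherin junctions, gap junctions and secreted ligands of the TGF-beta superfamily such as GDF9 and BMP15. Transcription ceases by the end of growth. GO1 is the first growing class of the series.

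GO1 cells differed widely in depth. Each count is of unique molecular identifiers (UMIs), that is, of tagged cDNA molecules after removal of duplicate reads. GO1 cells held between 22279 and 3898137 UMIs with a median of 110146, whereas the medians of the other stages lay between 540432 (NGO) and 972294 (GO3). The 6 deepest GO1 cells (numbers 1, 4, 6, 11, 13 and 15) each held at least 2380942 UMIs, the next held 782536, and these 6 cells supplied 70.9% of all GO1 UMIs. When every cell was thinned at random to 20000 UMIs, GO1 cells showed 4204 ± 429 genes (SD over 51 cells, from 3388 to 5446). The corresponding means were 4914 for NGO, 4308 for GO2, 4652 for GO3 and 4518 for FGO. A level is given below as UMIs per 1000000 UMIs (CPM), on 2 scales: the summed level pools all UMIs of a stage and therefore follows its deep cells, and the mean level weighs each cell equally.

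By expression profile, 45 of the 51 GO1 cells lay nearest to the mean of the other GO1 cells, 4 nearest to GO2 and 2 nearest to GO3, over 8671 genes. Of these 6 cells, 5 were among the 6 deepest. 3 sets of GO1 cells stood apart, and results that rest on them are given with and without them. The first set is the 6 deepest cells. The second is cell 3, whose ribosomal protein genes summed to 8546 CPM against at least 21304 CPM in each other GO1 cell and whose nuclear-encoded respiratory chain genes summed to 7941 CPM against at least 15885 CPM. The third is cells 41 to 51, of which 8 held 29 to 68 UMIs of the nuclear long noncoding RNA Malat1 per 20000, where the other 43 GO1 cells held at most 15 with a median of 4. Their totals ran from 22279 to 162906 UMIs. Whether these numbers mark a library was not tested, because the table does not name libraries. The 4 libraries named 296 barcodes, with between 8 and 96 shared by any pair of libraries and 8 shared by all 4, while the table held 223 cells.

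Markers of other ovarian cells were low in GO1. Of 14 stroma and theca markers 5 were at 0 and 12 lay under 1 CPM, and their sum ran from 0 to 95.7 CPM over cells with a median of 0. For blood cells 10 of 14 markers were at 0, with sums of 0 to 57.2 CPM and a median of 0, and for endothelium 2 of 9 were at 0, with sums of 0 to 93.7 CPM and a median of 27.5. Of 21 granulosa cell markers none was at 0 but 10 lay under 1 CPM, and their sum ran from 70.0 through a median of 327 to 684 CPM, led by Serpine2 (165 CPM mean level) and Esr2 (122.4 CPM). The corresponding median was 342 CPM in NGO and 617 CPM in GO2, so the GO1 median lay below both. The part of these transcripts in the results below was not tested. The label was also held against 4 genes given as GO1 markers. The mean level of Foxj3, a forkhead factor, was 210 CPM in GO1 and at most 84.9 CPM elsewhere, and that of Trps1, a GATA-type zinc finger repressor, was 81.5 CPM against 41.6 CPM in GO2. Satb1, a chromatin organiser, reached 121.9 CPM against 82.9 CPM in GO2. Tex26 was 157.02 CPM in GO1 and 147.2 CPM in GO2, and on the summed scale it was no higher in GO1 (0.99-fold, counting interval 0.94 to 1.03).

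Among the most abundant transcripts of GO1 were maternal-effect, histone and oocyte-specific genes. By mean level the first was Gm15698, a protein-coding gene of unassigned function on chromosome 11 (positions 88825972 to 88828245 of NCBIM37, the build also called mm9, minus strand). It ranged from 1689 through a median of 7965 to 16031 CPM over the 51 cells, with a mean of 8562 ± 3145 CPM (SD). Ldhb, a lactate dehydrogenase subunit, followed with 4271, 7563 and 11480 CPM as its lowest, median and highest cell. Pttg1, the gene of securin, ran from 2063 through 6539 to 13262 CPM. For these leading genes the lowest and highest GO1 cells lay several-fold apart, so that the order among neighbours in rank does not exceed the spread between cells.

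Next in order came Spin1 (mean level 6598 CPM), a histone-reading protein abundant in oocytes, H1foo (6395 CPM), the oocyte-specific linker histone, E330017A01Rik (6100 CPM), Dppa3 (5985 CPM), a maternal-effect protein that protects DNA methylation, and Ubb (5874 CPM), a polyubiquitin gene. Sub1, a transcriptional coactivator, reached 5795 CPM. Also among the first 20 were Omt2b, an oocyte-specific transcript (5444 CPM), Washc4, a subunit of the endosomal WASH complex (5061 CPM), the histone variant gene H3f3b, Gm813, the membrane-actin linker Rdx, the kinase gene Cdk7, the ubiquitin ligase genes Skp1a and Fbxw24, the zinc finger gene Zbed3 and the chaperone gene Hsp90aa1. Together the 20 held 11.1% of the UMIs of a GO1 cell on average. A UMI stands for 1 molecule, so levels were not divided by transcript length. The multi-copy genes among them, Ubb, H3f3b and Hsp90aa1, have close relatives or pseudogenes that could share reads, and E330017A01Rik and Gm813 are neighbours on the minus strand of chromosome 16 (58635280 to 58638852 and 58613799 to 58617091).

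Of these 20 transcripts, 13 were also among the first 20 of GO2, 13 of GO3, 12 of FGO and 7 of NGO. Some stood far higher in growing than in resting oocytes. Gm813 had a mean level of 4761 CPM in GO1 against 105.3 CPM in NGO, and Omt2b had 5444 against 649 CPM. Pttg1 had 7048 CPM in GO1 against 1417 CPM in NGO and 11037 CPM in GO2. H1foo stood between its neighbours, with 4419 CPM in NGO, 6395 CPM in GO1 and 14104 CPM in GO2. Dppa3 lay lower in GO1 (5985 CPM) than in NGO (9134 CPM) or FGO (7868 CPM).

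**Figure D1:**
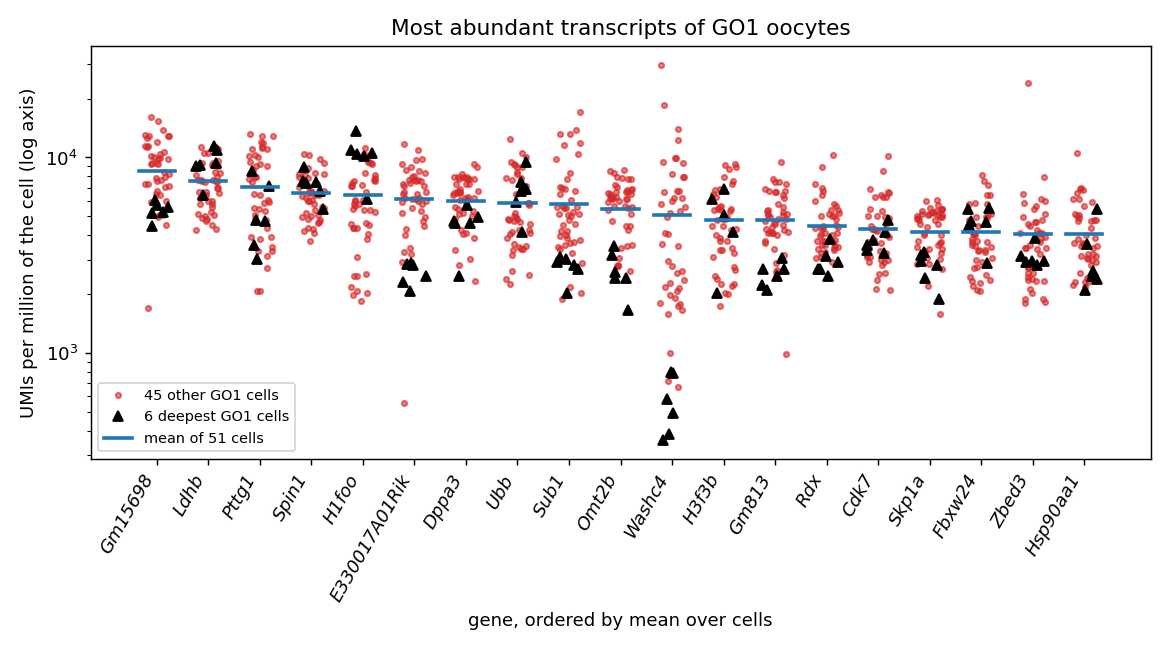
Level in each GO1 cell (CPM of the cell, log axis) of 19 of the 20 transcripts with the highest mean level, ordered by that mean (blue bar, 51 cells). Black triangles are the 6 deepest cells and red dots the other 45: Washc4 spans 359 to 29849 CPM with the deepest cells at its lower end, H1foo has the deepest cells towards the top, and Zbed3 has a single cell at 24149 CPM.

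Some members of this list owed their place to 1 cell or to how cells were weighed. Washc4 ran from 359 through a median of 3530 to 29849 CPM, and on the summed scale, which follows the deep cells, it stood at 1230 CPM (interval 1217 to 1244, counting error only). Its rank correlation with the UMI total of the cell was -0.85. Zbed3 had a median of 3449 CPM but reached 24149 CPM in cell 3. Among the first 20 by the summed scale, 15 were shared with the order given here, and 19 were shared without cell 3. Besides Washc4, those outside the first 20 by summed level were Sub1 (3248 CPM), Rdx (3205 CPM), Skp1a (3159 CPM) and Gm813 (3076 CPM). Sub1 and Rdx had rank correlations of -0.69 and -0.66 with the UMI total of the cell.

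Genes highest in GO1 were sought with a rule of size: at least 2-fold above each of the other 4 stages on both scales, with at least 10 CPM on both. This rule took 36 of 6764 genes (0.532%). The same rule took 981 genes for NGO (13.1%), 1 for GO2 (0.0152%), 1 for GO3 (0.0142%) and 3 for FGO (0.0432%). Of the 36 genes highest in GO1, 12 stayed past the rule under DESeq2 size factors and 13 under TMM factors. The 11 that stayed under both were Tktl2, Sav1, Rpia, Nkrf, Mex3c, Dcbld2, Ubqln2, Rab21, Rps6ka6, Atp13a3 and Sh3pxd2a. On the summed scale the nearest stage was GO3 for 24 of the 36 genes, GO2 for 11 and FGO for 1, whereas on the mean scale it was GO2 for 22 and GO3 for 14. The lower of the ratios on the 2 scales ran from 2.004 to 2.96 over the 36 genes, and their mean levels from 13.1 to 316 CPM. For a called gene, between 18 and 47 of the 51 GO1 cells (median 38) lay above the mean of the nearest stage, so the distributions overlapped for every called gene. Just outside the limit lay Cebpb and Bmp6, each at 1.99-fold.

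The largest ratios belonged to genes of modest level. Tktl2, a transketolase-like gene on chromosome 8, had a mean level of 13.1 CPM in GO1 and 3.50 CPM in GO2 (2.96-fold on the lower scale, interval 2.34 to 3.79), but its median over GO1 cells was 0. Rpia, the ribose 5-phosphate isomerase of the same pentose phosphate pathway, had 23.1 CPM against 5.02 CPM in GO2. Sav1, the scaffold of the Hippo kinases, had 19.1 CPM in GO1, 5.31 CPM in GO2 and 0.22 CPM in NGO. Nkrf, a repressor of NF-kappa-B targets, and Mex3c, an RNA-binding ubiquitin ligase, were 2.49-fold and 2.44-fold higher. In each of these 5 genes the lowest GO1 cell was at 0.

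Called genes of higher level stood above the neighbouring stages in most cells. Ybx3, a cold-shock domain protein that binds mRNA, ranged from 54.9 through 255 to 830 CPM over GO1 cells, and 47 of the 51 lay above its GO3 mean of 112.9 CPM. Slain1, a microtubule plus-end protein, ranged from 25.2 through 176 to 788 CPM, with 45 of 51 cells above the GO2 mean of 72.9 CPM. Sfpq, a splicing and paraspeckle protein, ranged from 0 through 83.6 to 504 CPM, with 45 cells above the GO2 mean of 36.5 CPM. In each of these genes the bulk of GO1 cells, not a few, stood above the neighbouring stage, though single GO1 cells fell below it. Ybx3 and Slain1 fell short of the 2-fold rule under both scaling alternatives, and Sfpq under DESeq2 size factors.

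Several called genes serve contact and signalling at the cell surface. Cdh1, E-cadherin, which joins the oocyte to granulosa cells, ranged from 0 through 80.9 to 580 CPM. Its mean level was 110 CPM in GO1 against 36.02 CPM in GO2 and 29.2 CPM in GO3, with NGO at 19.5 CPM and FGO at 18.2 CPM. Of the 51 cells 42 lay above the GO2 mean. Cdh1 fell short of the 2-fold rule under both scaling alternatives, as did Kremen1, Apc, Itga6 and Jak2, named next. Kremen1, a Dickkopf receptor of the Wnt pathway, had 44.8 CPM against 14.6 CPM in GO3, and Apc, a scaffold of the complex that degrades beta-catenin, had 45.2 CPM against 19.8 CPM in GO2. Itga6, a laminin receptor subunit, had 82.8 CPM against 31.7 CPM in GO2, and Jak2, a cytokine receptor kinase, had 122.8 CPM against 42.3 CPM in GO3. Dcbld2, a transmembrane receptor-like gene, had 56.9 CPM against 18.6 CPM in GO2. These roles were assigned after the values were seen, Itga6 and Jak2 lie outside the rule for named genes, and no grouping was tested.

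Others act on RNA, protein turnover and membranes. Scaf4 and Scaf8, paralogous factors that bind the tail of RNA polymerase II, had 52.1 and 32.04 CPM in GO1 against 20.5 CPM (GO2) and 12.2 CPM (GO3). Ubqln2, a shuttle to the proteasome, had 43.3 CPM against 11.3 CPM in GO3. Rab21, an endosomal GTPase, had 124.2 CPM against 38.3 CPM in GO3, and Stxbp5, the syntaxin-binding tomosyn, had 21.8 against 7.67 CPM. Rps6ka6, a ribosomal S6 kinase of the RSK family, had 38.2 CPM against 9.56 CPM in GO2. Glce, an epimerase of heparan sulphate synthesis, had 87.6 against 37.2 CPM, and Atp13a3, a P-type transport ATPase, had 64.2 against 25.8 CPM. Sh3pxd2a, an adaptor of invasive actin structures, completed the first 20 at 2.11-fold. Scaf4, Scaf8 and Glce fell short of the 2-fold rule under both scaling alternatives, and Stxbp5 under DESeq2 size factors. Scaf8 was again named after its values were seen.

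**Figure D2:**
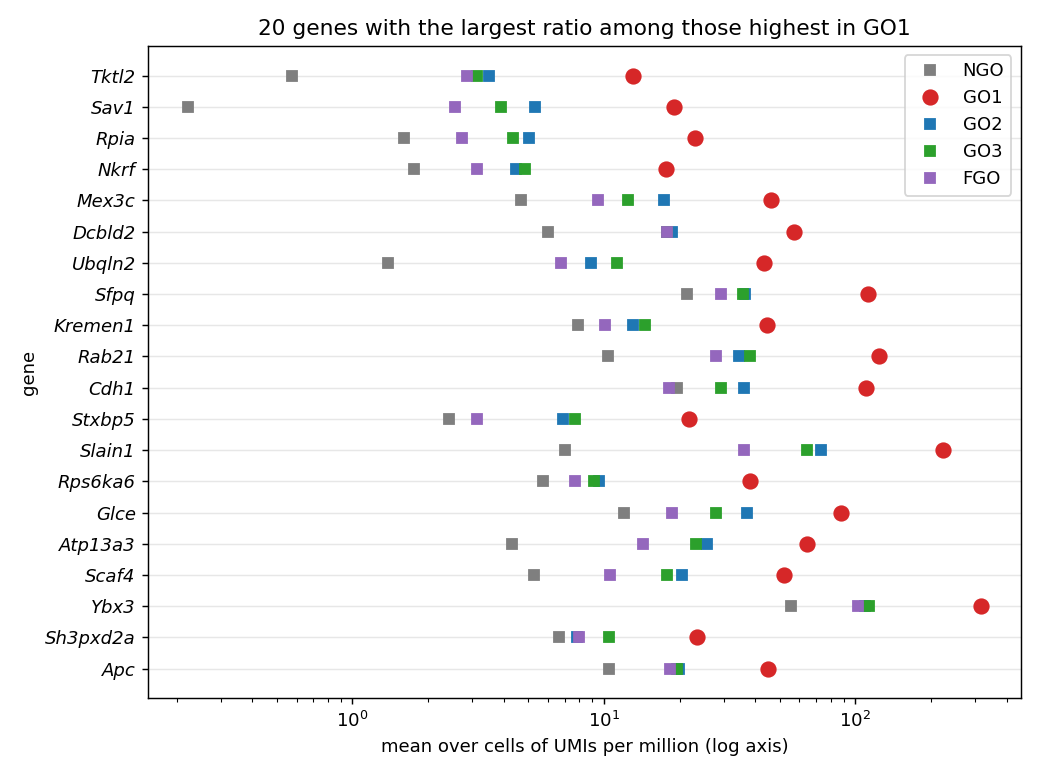
Mean level over cells (CPM, log axis) in each stage of the 20 genes with the largest ratio among the 36 highest in GO1. The red GO1 points stand to the right of every other stage, NGO is lowest for most genes, and GO2 and GO3 lie next to GO1, for Cdh1 at 36.02 and 29.2 CPM against 110 CPM.

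The length and the promoters of the 36 genes were also described. The median length of their longest coding transcript (GENCODE, NCBIM37) was 4561 nt, with a lower quartile of 3296.5 nt, against 2893 nt over the tested genes. Promoters of 300 bases (around the start of the transcript, RefSeq, GRCm38.p6) were found for 25 of the 36 genes, 30 promoters in all. Of these, 73.3% held CCGCCC, the core of a GC box, on either strand, against 35.7% of all 32851 promoters and 62.5% of those of genes abundant enough to be tested for spread. Their median number of CpG dinucleotides was 28, against 22 for the genes tested for spread and 7 over all promoters. These are descriptions of sequence, not sites. Genes with annotated positions (34 of 36) lay on 16 chromosomes.

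The call depended on the deepest cells. Without the 6 deepest GO1 cells, 273 of 6732 genes (4.06%) were highest in GO1, including 35 of the 36, and with only cells under 1000000 UMIs in every stage 208 were, again including 35. Without the 6 cells Rpia was 4.74-fold higher in place of 2.55-fold, Ubqln2 4.15-fold in place of 2.34-fold, Rab21 3.46-fold in place of 2.23-fold and Cdh1 3.25-fold in place of 2.20-fold. In the 6 deepest cells Cdh1 lay between 22.6 and 179 CPM, and Ubqln2 between 5.13 and 63 CPM. New among the 273 were Fmn2, a formin required for the meiotic spindle to move (192 CPM in the 45 cells and 59.2 CPM in GO2), Tjp1, a tight junction scaffold (33.9 against 10.4 CPM in GO3), and Fzd7, a Wnt receptor (12.8 against 3.49 CPM in GO3). These 3 were chosen after their values were seen. The 273 genes had a median length of 4828.5 nt and a median GC content of 46.2%, against 2925.5 nt and 48.5% over the genes tested. Of the 4 marker genes above, none passed the rule with all cells, and Trps1 and Foxj3 passed it without the 6 deepest. Without cell 3 the count was 33, and without cells 41 to 51 it was 31.

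The chromatin regulators that the study named lay together at the top in GO1. All 14 had their highest level in GO1 on both scales, where 22.1% of all tested genes did, although none of the 14 passed the 2-fold rule. The median log2 ratio to the next stage was 0.57 for this list and -0.52 over all genes. Since the study chose these regulators from the same cells, the count is no independent evidence of its direction. Under DESeq2 size factors 12 of 14 and under TMM factors 11 of 14 kept the highest level in GO1, the exceptions being Ezh2 and Dpy30 and, under TMM, Jarid2. Without the 6 deepest cells all 14 remained, and without cells 41 to 51 Dpy30 left.

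Their levels spread widely. Summed per cell, the 14 genes ran from 1316 through 2817 to 7512 CPM in GO1, the top value being that of cell 3, and up to 4849 CPM in the other cells. The median sum was 1034 CPM for NGO cells, 1829 CPM for GO2 cells, 1841 CPM for GO3 cells and 1567 CPM for FGO cells. The ranges overlapped. The 6 deepest GO1 cells had a median sum of 1841 CPM, near the medians of GO2 and GO3, and the other 45 had 2844 CPM. The rank correlation of the sum with the UMI total was -0.36 over GO1 cells. Among the 6 deepest, cell 15 had 4434 CPM and the others between 1316 and 2037 CPM. The part of depth in these values was not tested. Suz12, a core subunit of Polycomb repressive complex 2, had a mean level of 182 CPM in GO1 against 87.2 CPM in GO2 (1.78-fold on the lower scale). Kdm6a, a histone H3 lysine demethylase on the X chromosome, had 89.95 against 34.5 CPM. Bmi1 and Rybp, members of Polycomb repressive complex 1, had 180 and 137.6 CPM against 105.02 and 90.2 CPM in GO2. Dpy30, a subunit shared by H3K4 methyltransferase complexes, was the most abundant at 868 CPM and hardly exceeded GO2 (748 CPM). Sin3a, a corepressor scaffold, had 135.7 CPM against 85.5 CPM. Sirt1, a deacetylase, had 51.6 CPM against 24.9 CPM in GO3.

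Genes of the egg coat and of secreted factors stood in different orders. The ligand genes Bmp15 and Bmp6 were highest in GO1: Bmp15 ranged from 355 through 971 to 2946 CPM with a mean of 1069 CPM, against 576 CPM in GO3 and 110.9 CPM in NGO, and Bmp6 had 60.1 against 27.2 CPM in GO2. Gdf9 was the most abundant of the list at 3497 CPM, below all 4 other stages (4603 to 4876 CPM). The zona pellucida genes Zp1, Zp2 and Zp3, which build the egg coat, had 619, 707 and 2952 CPM, each well below NGO (2629, 4131 and 11549 CPM). Summed over the 8 genes, GO1 cells ran from 5690 through 9071 to 16619 CPM, lower than NGO (16176 through 23289 to 27725 CPM) with a narrow overlap.

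Genes of contact with granulosa cells were split. Of 6 with at least 10 CPM, 3 were highest in GO1, against 22.1% over all tested genes: Cdh1, the beta-catenin gene Ctnnb1 (142.4 against 64.2 CPM in GO2) and the Notch ligand gene Jag1 (401 against 309 CPM). Gja4, the connexin of oocyte gap junctions, had 344 CPM in GO1 and 440 CPM in GO2, and Cd9, an egg tetraspanin, had 210 CPM against 754 CPM in FGO. Of the Kit and PI3K growth genes 5 of 13 were highest in GO1 (22.1% over all tested genes). Kit, the receptor through which granulosa Kit ligand acts, had 145.6 CPM against 91.2 CPM in NGO, and Rictor, a subunit of mTOR complex 2, had 58.1 CPM against 20.3 CPM in GO3.

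Genes that control stored mRNA were highest in GO1 for 6 of 15, against 22.1% of all tested genes. Lsm14b, an RNP protein of the oocyte, had 132.4 CPM against 50.7 CPM in NGO and 50.2 CPM in GO2, and Cnot6l, a deadenylase, had 242 against 125.95 CPM in GO2. Ybx2, the germ cell Y-box protein that masks mRNA, had 106.6 CPM against 62.4 CPM in NGO. Btg4, an adaptor of maternal mRNA clearance, was the most abundant with 1330 CPM but stood at 1510 CPM in GO2. Of the DNA methylation genes 4 of 10 were highest in GO1, where 22.1% of all genes were. Tet3, a 5-methylcytosine dioxygenase, had 342 against 244 CPM in GO3, while the de novo methylation cofactor Dnmt3l had 57.1 CPM in GO1 and 142.6 CPM in GO2.

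Of 12 oocyte transcription factor genes 1, Rfx2, was highest in GO1, against 22.1% of all tested genes. Nobox, a homeobox factor needed for follicles to grow, ranged from 60.6 through 319 to 1519 CPM, with a mean of 419 CPM against 944 in GO2, 1237 in NGO and 1663 in GO3. Sohlh1, a factor of resting oocytes, had 0.69 CPM in GO1 and 392 CPM in NGO. Obox2 and Obox5, homeobox genes active from growth onward, had 723 and 679 CPM against 17.9 and 64.5 CPM in NGO. Of the oocyte Nlrp, Oog and related genes 8 of 19 were highest in GO1 by any margin, led by Oosp3 (1778 against 1158 CPM in GO2), where 22.1% of all genes were. The number was 4 (21.1%) under both scaling alternatives, near the 17.7% and 18.1% of all genes under DESeq2 size factors and TMM factors.

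No gene passed the reverse rule. Of 5770 genes, 0 were at least 2-fold below every other stage on both scales (0%), and 861 (14.9%) were lowest in GO1 by any margin. The nearest was Cdk5rap3, with a mean level of 14.6 CPM in GO1 and 29.3 CPM in GO2 but a summed level of 23.3 and 40.2 CPM, and Tmem14c, a mitochondrial membrane protein, had 290 CPM against 437 CPM in FGO. Without the 6 deepest GO1 cells the count was 334 (5.79%), and with only cells under 1000000 UMIs in every stage it was 2.13% of 5548 genes. Pias4, a SUMO ligase, had 14.9 CPM in the 45 remaining cells, 91.4 CPM in GO3 and between 90.7 and 183 CPM in each of the 6 deepest cells. Eif5a, a translation factor, had 178 CPM in the 45 cells, 619 CPM in GO3 and between 425 and 856 CPM in the deepest. NGO had 105.95 CPM of Pias4 and 1470 CPM of Eif5a. For both genes the range of the 6 deepest cells spanned the means of GO2, GO3 and FGO, and the mean of the 45 others lay below them. The 334 genes were short and rich in GC, with medians of 2079.5 nt and 55.6% GC against 2695 nt and 49.2% over the genes tested. The mean transcript length of a cell's UMIs ran from 2560 to 3521 nt over GO1 cells, with a rank correlation of -0.50 with the UMI total. The median cell stood at 2777 nt in GO1, against 2593 nt in NGO, 2651 nt in GO2, 2648 nt in GO3 and 2591 nt in FGO. Whether depth, GC or length had a part in these counts was not tested.

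The same split ran through the housekeeping lists. Ribosomal protein genes summed to a median of 36482 CPM in the 45 shallower cells and 22538 CPM in the 6 deepest, where GO2 had a median of 23196 CPM and NGO 43617 CPM. Respiratory chain genes encoded in the nucleus had 30848 and 21375 CPM in the same sets, and 22578 CPM in GO2. Egg coat genes went the other way, with 8720 CPM in the 45 cells and 13900 CPM in the 6 deepest. Proteasome subunit genes had 10599 and 11274 CPM. Markers of other cells differed between the same sets. The 21 granulosa cell markers summed to a median of 308 CPM in the 45 cells and 635 CPM in the 6 deepest (rank correlation with the UMI total 0.60), the endothelial markers to 20.6 and 51.8 CPM, and the blood cell markers to 0 and 32.6 CPM. Their part in this split was not tested.

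To find genes that differ between GO1 cells, each cell was thinned to 20000 UMIs and the variance of a gene over its mean (Fano factor) was set against the median of 100 genes of like mean. A gene was called variable at 2 times that median, with and without its highest cell. This took 3.21% of the 3241 genes with a mean of at least 1 UMI. The same rule took 2.27% of genes in NGO, 1.8% in GO2, 1.33% in GO3 and 2.88% in FGO. A further 43 genes passed only with their highest cell, and for 19 of these that cell was cell 3. Of the genes called variable with and without their highest cell, 43 were also called in FGO, where 96 of them were tested. The corresponding numbers were 29 of 95 in NGO, 16 of 93 in GO2 and 16 of 87 in GO3. Just outside the limit lay Dclk2 and Mtmr14.

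Malat1 led the list. It ranged from 0 through a median of 4 to 68 of 20000 UMIs, and its Fano factor was 10.97 times that of like genes without its highest cell. NGO cells held 21 through 75 to 168 UMIs of it, GO2 cells 0 through 2 to 10 and FGO cells 7 through 25 to 161. Washc4 ranged from 4 through 72 to 592 UMIs (9.48 times). Brd8, a bromodomain subunit of a histone acetylase complex, ranged from 0 through 6 to 78 (8.22 times) and Nlrp5, a maternal protein of the subcortical complex, from 7 through 42 to 194 (5.68 times). Each of these genes was high in some GO1 cells and near its floor in others.

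The other genes among the 20 most variable included Exosc2, a subunit of the RNA exosome (a median of 8 UMIs and 7150 CPM of the thinned UMIs in its highest cell), Rab33b, a Golgi GTPase (0 through 14 to 120 UMIs), Gmeb1, a DNA-binding modulator (a median of 10 UMIs and 6600 CPM in its highest cell), and Luc7l2, a splicing factor (3 through 29 to 215 UMIs). For Exosc2, Gmeb1 and Luc7l2 the highest cell was cell 50, the shallowest, at 22279 UMIs. Rn45s, the ribosomal RNA precursor, ranged from 1 through 8 to 73 and had no relation to the total (rank correlation 0.04). Xaf1, a gene linked to apoptosis and interferon, ranged from a median of 0 to 34. The remainder were Brip1os, Teddm1b, Lcmt2, Tmem69, Casc4, Omd, Ctsl, Sub1, Cxcr2 and Mtus2. Brip1os carries the name of an antisense partner of Brip1, and since no source used here states a stranded count, its reads and those of its partner cannot be told apart.

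**Figure D3:**
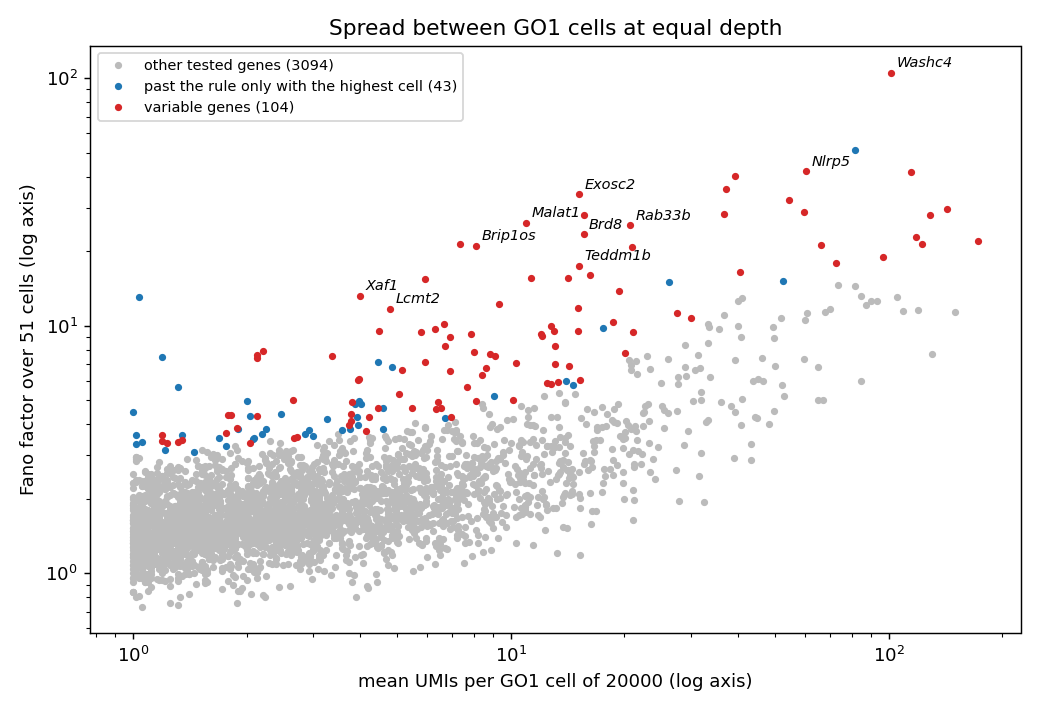
Fano factor over 51 GO1 cells thinned to 20000 UMIs (log axis) against mean UMIs per cell (log axis) for 3241 genes. The variable genes (red, 3.21%) lie above the grey band of genes of like mean, with Washc4 highest, and 43 genes (blue) pass only with their highest cell.

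Equal depth did not remove the tie to the original depth. Among the variable genes 28.8% had a rank correlation of -0.5 or lower with the UMI total of the cell, against 2.13% of all tested genes. For a correlation of 0.5 or more the shares were 9.62% and 4.04%. Between -0.2 and 0.2 lay 23 of the variable genes, a band not counted over all tested genes. Without the 6 deepest cells 86 genes were called, 79 of them in common with the list above, and without cells 41 to 51 88 were called, 70 in common. Dnmt3a, the de novo DNA methyltransferase, and Tet3 were variable, at 2.58 and 2.20 times like genes. Abundant variable genes outside the modules described next included Pttg1 (4.00 times), Nlrp14 (3.24), the Gm15698 transcript (3.02) and Ubb (3.02). Ubb and H3f3b moved together with a rank correlation of 0.87 over 51 cells.

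57 of the variable genes fell into 4 modules of co-varying genes. Over all pairs of the 3241 genes the median rank correlation was 0.01, and 0.337% of pairs reached 0.5. Among the variable genes, from which the modules were drawn, the median was 0.07 and 15.2% of pairs reached 0.5. Within modules the median was 0.64 (module 1, 22 genes), 0.64 (module 2, 22 genes), 0.61 (module 3, 8 genes) and 0.62 (module 4, 5 genes), which the clustering itself ensures. The points are 51 cells that share a stage, unnamed libraries and a wide range of depth, so these values are descriptions. After removing the rank of the cell total they were 0.54, 0.51, 0.37 and 0.56. By position, modules 1 and 2 each lay on 12 chromosomes, and module 3 on 5.

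**Figure D4:**
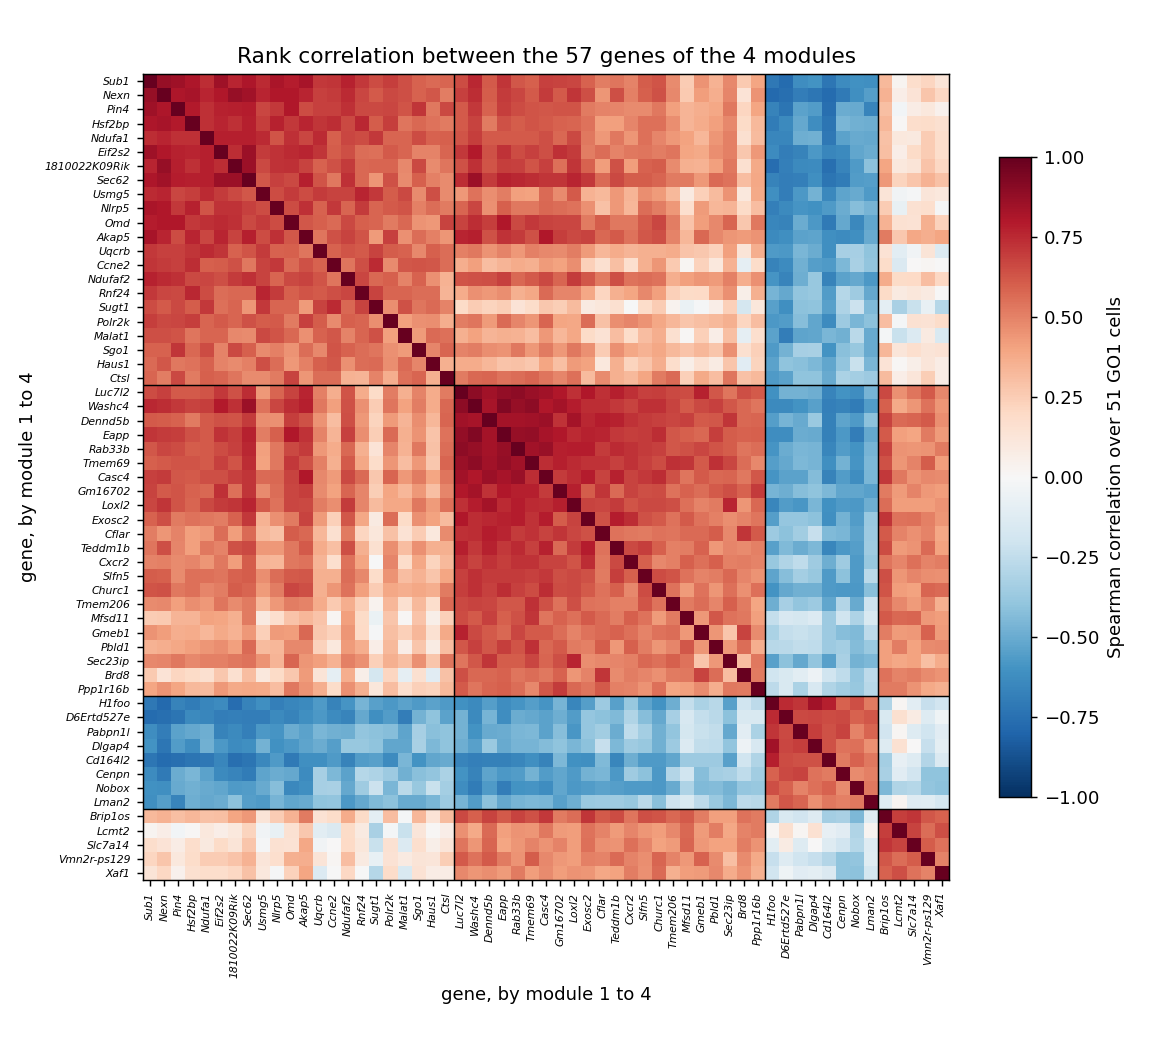
Spearman correlation over 51 GO1 cells, thinned to 20000 UMIs, between the 57 genes of the 4 modules (black lines separate them). Modules 1 and 2 correlate positively with each other, and module 3 correlates negatively with both.

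Module 1 was led by Sub1, Nexn, an actin-binding protein, the prolyl isomerase gene Pin4 and Hsf2bp, a meiotic recombination factor. It also held Ndufa1, Uqcrb and Ndufaf2 of the respiratory chain, the translation initiation factor gene Eif2s2, the translocon gene Sec62, Nlrp5, the cohesin protector Sgo1, cyclin E2 (Ccne2) and Malat1. Its 22 genes summed to 179 through 521 to 1530 UMIs of 20000. In cells 41 to 51 the sum was 636 to 1530 with a median of 1239. In cells 1 to 40 it was 179 to 952 with a median of 453.5, so the sets overlapped between 636 and 952. Cells 41 to 51 were also shallower, with a median total of 73158 UMIs against 182384. Sub1 had a median of 232 UMIs in cells 41 to 51 and 76.5 in the others, and Nexn had at least 74 UMIs in each of cells 41 to 51 against a median of 51.5 in the others. Without cells 41 to 51 the median correlation of the module was 0.47. Outside GO1 these genes had a median correlation of 0.00 (NGO), 0.15 (GO2), 0.20 (GO3) and 0.29 (FGO). Choosing the genes on GO1 cells raises the GO1 value by itself, and with it the gap to these stages. The module sum followed the cell total in every stage but with different strength, with a rank correlation of -0.73 in GO1, -0.46 in NGO, -0.87 in GO2, -0.71 in GO3 and -0.88 in FGO. In the 8 FGO cells under 200000 UMIs it ran from 442 to 895 UMIs, against a median of 322.5 in the other FGO cells, and in GO1 the medians of the corresponding sets were 731 and 320. Uqcrb, Ndufaf2, Ccne2 and Sgo1 were named after their values were seen.

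Module 2 was led by Luc7l2, Washc4, the Rab exchange factor Dennd5b, Eapp and Rab33b, followed by Tmem69, Casc4 and Gm16702. It summed to 38 through 349 to 2264 UMIs, with 38 to 100 in the 6 deepest cells and 60 to 2264 in the other 45. Eapp and Washc4 formed the closest pair of all, with a correlation of 0.92 that was 0.81 after removing the rank of the total. Module 2 was steady when cells 41 to 51 were left out (0.62). In the other stages its median correlation was 0.44 in FGO, 0.34 in NGO, 0.32 in GO2 and 0.14 in GO3. Its sum correlated with that of module 1 at 0.75.

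Module 3 ran against both. It held H1foo, Nobox, the centromere gene Cenpn, Pabpn1l, an embryonic poly(A)-binding protein, the scaffold gene Dlgap4, the cargo receptor gene Lman2, D6Ertd527e and Cd164l2. Its sum had a rank correlation of 0.68 with the UMI total, -0.84 with the sum of module 1 and -0.66 with that of module 2. H1foo ranged from 32 to 263 UMIs with a mean of 128.8, with 32 to 92 in cells 41 to 51 and 76 to 263 in cells 1 to 40. Nobox ranged from 0 through 6 to 38 UMIs, with 12 to 38 in the 6 deepest cells. Summed over the module, the 6 deepest cells held 221 to 454 UMIs, the other 45 held 59 to 397, and GO2 cells held 331 to 638. The closest opposed pair was H1foo and Nexn (-0.78, or -0.63 after removing the rank of the total).

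**Figure D5:**
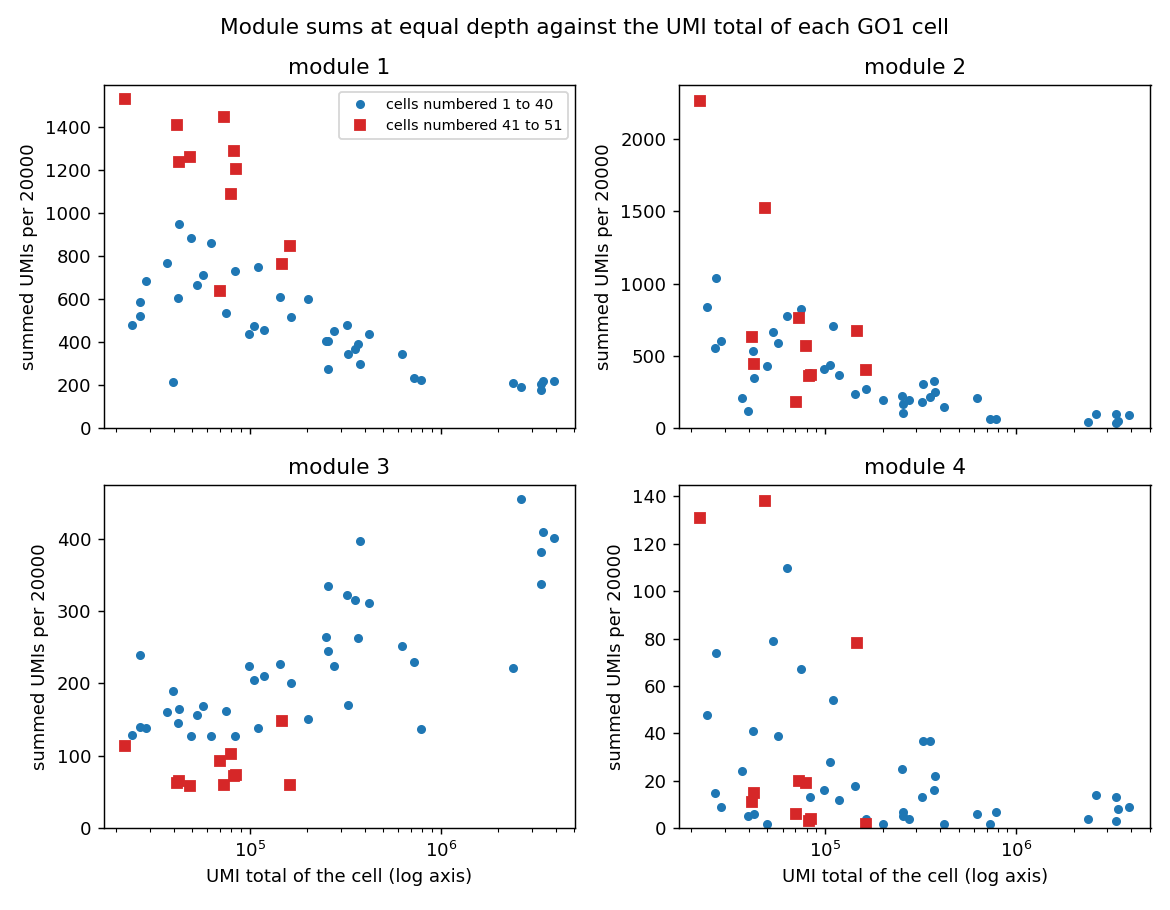
Summed UMIs of each module in each GO1 cell thinned to 20000 UMIs, against the original UMI total of the cell (log axis). Red squares are cells 41 to 51 and blue dots cells 1 to 40: at like totals most of the squares lie above the dots in module 1 and below them in module 3, while in module 2 the sets mix.

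The promoters of module 3 are shown because it is the 1 module that rises with depth and holds an oocyte homeobox factor among its members. Promoters were found for 7 of its 8 genes. The letters searched, on either strand, were TAATTG, a homeobox core that Nobox is known to bind, and CANNTG, the E-box bound by factors such as Figla. TAATTG stood in 1 of the 7 (Cenpn) and in 8% of all promoters, and CANNTG in 6 of the 7 and in 72.3% of all promoters. Capitals mark these letters in the promoters of Nobox (chr6:43309505-43309804, minus strand), Pabpn1l (chr8:122622686-122622985, minus strand) and Cenpn (chr8:116921490-116921789, plus strand) and in that of Sub1, which leads the opposed module 1 (chr15:11995958-11996257, minus strand), each read 5′ to 3′ from RefSeq, GRCm38.p6.
Nobox: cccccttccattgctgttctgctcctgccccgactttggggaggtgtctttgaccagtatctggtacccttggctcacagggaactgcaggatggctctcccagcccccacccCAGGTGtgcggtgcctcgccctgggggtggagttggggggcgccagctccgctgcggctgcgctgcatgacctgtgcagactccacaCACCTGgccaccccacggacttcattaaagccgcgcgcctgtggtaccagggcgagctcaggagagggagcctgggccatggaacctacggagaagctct
Pabpn1l: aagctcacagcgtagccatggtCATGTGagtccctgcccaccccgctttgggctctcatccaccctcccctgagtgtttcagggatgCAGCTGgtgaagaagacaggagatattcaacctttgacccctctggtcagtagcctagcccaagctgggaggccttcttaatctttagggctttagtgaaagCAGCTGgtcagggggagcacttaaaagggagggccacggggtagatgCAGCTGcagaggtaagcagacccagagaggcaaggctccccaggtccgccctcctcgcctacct
Cenpn: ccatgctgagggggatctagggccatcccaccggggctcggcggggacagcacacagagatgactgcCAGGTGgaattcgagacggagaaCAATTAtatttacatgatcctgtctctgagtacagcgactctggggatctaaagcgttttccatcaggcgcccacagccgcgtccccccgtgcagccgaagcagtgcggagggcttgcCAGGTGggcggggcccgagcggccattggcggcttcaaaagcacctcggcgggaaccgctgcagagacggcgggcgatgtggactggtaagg
Sub1: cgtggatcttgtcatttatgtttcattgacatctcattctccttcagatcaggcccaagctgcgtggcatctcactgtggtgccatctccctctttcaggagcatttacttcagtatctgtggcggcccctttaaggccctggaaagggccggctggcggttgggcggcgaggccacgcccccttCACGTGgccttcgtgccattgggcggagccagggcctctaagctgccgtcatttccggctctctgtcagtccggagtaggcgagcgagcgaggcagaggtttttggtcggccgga
In module 3 the shares were 14.3% for TAATTG and 85.7% for CANNTG. Over the promoters of genes tested for spread they were 5.76% and 62.8%. The 7 promoters are too few for a comparison of shares, and a match is a description of letters and not a bound site.

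Module 4 was the smallest and its genes were scarce: Brip1os, the methyltransferase-like gene Lcmt2, the transporter gene Slc7a14, the pseudogene Vmn2r-ps129 and Xaf1 had a lowest sum of 2 and a median sum of 13 UMIs. The sum was over 100 UMIs in 3 cells. Its rank correlation with the UMI total was -0.39, and its median correlation in other stages was at most 0.33 (GO2). Reads of a pseudogene can come from its relatives, so Vmn2r-ps129 is uncertain.

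A single variable gene, the RNA-binding protein gene Pcbp1, was also among the 36 genes highest in GO1. It ranged from 41.6 through 132.9 to 1084 CPM, with 42 of 51 cells above the GO2 mean of 76.2 CPM. The shared gene is 1 of the 36 highest genes (2.78%) and 0.962% of the variable genes. Over all genes tested for spread the variable share was 3.21%. Some of the 36, such as Nkrf and Nup205 (mean levels 17.6 and 21.1 CPM), were too low to be tested for spread. The 2.78% is therefore not a share of tested genes, and the overlap shows neither a link between the lists nor a separation of them.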

How the data were processed

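Single oocytes of 5 stages were sequenced by the authors, who split reads by cell barcode, aligned them with Tophat to mm9 and removed duplicate UMIs. The deposited table holds raw UMI counts for 23201 genes in 223 cells, which are not normalized, and all 223 cells pass the filter the study states (over 3000 genes, 20000 to 4000000 transcripts). No spike-in rows are in the table. Doublets were not called, since oocytes were picked singly. Group and cell number were read from the cell names, and no 2 GO1 cells held identical counts.

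Here counts were divided by the cell or stage total (CPM), with no filter on cells, and thinned without replacement to 20000 UMIs with a fixed seed for work at equal depth. The authors' alignment and the counting of UMIs set the values, and the capture of long or GC-rich transcripts can differ with the quality of a cell. With 1 pooled sample a stage no test was made. Intervals of levels are exact Poisson intervals and those of ratios exact binomial intervals, both at 95%. Like all interval statements, they cover counting error only. For stages the rule was 2-fold and 10 CPM on both scales. Variable genes needed a mean of 1 UMI and 2 times the median Fano factor of 100 genes of like mean. Modules came from Spearman correlation, average linkage, a limit of 0.5 and at least 5 genes. Named genes were the 20 most abundant, the 20 with the largest ratio, the 10 nearest to lowest, the 20 most variable, up to 8 a module, and in each list those leading by level, ratio or spread, with exceptions named in the text. Members and lists were chosen with earlier results of these data known, and some lists come from the study itself.

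The rules were tested on simulated counts of 23201 genes. Of 200 genes changed 3-fold, 200 were recovered as highest and 199 as lowest. Of 100 genes given extra spread 90 were recovered, with 6 unchanged genes called. For the stage rule the counts held counting error only, around the same profile in each cell of a stage. Spread between cells and ties of composition to depth were thus not covered. All changed genes were drawn from levels above the limits of the rules (10 CPM and a mean of 1 UMI). Recovery close to these limits, where called genes such as Tktl2 lie (summed level 10.9 CPM), was not covered either. The simulated 3-fold change also lay above the largest called ratio on the lower scale (2.96-fold). Alternatives changed the scaling (edgeR 4.0.16 TMM and DESeq2 1.42.0 size factors, R 4.3.3), weighting, depth, filters and cells. Python 3.11.15 with numpy 2.4.6, pandas 2.3.3 and scipy 1.17.1 was used. Genes encoded by mitochondrial DNA are not in the table. The other RNA, methylation and chromatin data of the series were not used here. 1 of the 20 most abundant genes is not reported here.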

Additional observations from a re-analysis of the deposited data

How the results depend on the processing

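No paired analysis was possible because each stage is 1 pooled sample and the cell numbers do not pair cells across stages. Counts are given here as percent of the genes tested under each setting. The 0.532% highest in GO1 (36 genes) became 0.178% with DESeq2 size factors (12 genes), 0.208% with TMM factors (14 genes), 4.55% by the mean over cells alone, 2.92% with the same number of cells per stage, 4.34% and 2.34% when thinned to 20000 and 50000 UMIs, 2.16% without the 10 deepest cells of each stage, 4.26% at 1.5-fold, 0.397% at 50 CPM or more and 2.61% with no filter on low values. In alternatives chosen after seeing the data, the share became 4.06% without the 6 deepest GO1 cells and 3.09% with cells under 1000000 UMIs only. The 0% lowest in GO1 became 0.0167% by summed UMIs alone (1 gene), 2.24% by the mean alone, 0.0348% with the same number of cells (2 genes), 3.83% and 2.30% when thinned to 20000 and 50000 UMIs, 4.11% without the 10 deepest cells of each stage, 0.0867% at 1.5-fold (5 genes), 2.35% with no filter and, in the alternatives chosen after seeing the data, 5.79% and 2.13%. The cause was not tested, and no direction reversed among the 20 named ratios. The 3.21% that varied became 3.89% at 50000 UMIs (208 genes in 38 cells) and 1.39% at a Fano factor 3 times that of like genes (45 genes), with a range of 2.68% to 4.62% in the other alternatives. Of the variable genes 54.8% lay in modules, and the share was 72.6% at 50000 UMIs, 40% without the 10 deepest GO1 cells (34 genes) and 31.7% after removing the rank of the cell total (33 genes), with 3 modules in each of the last 2. Genes per cell were 5959 at 50000 UMIs and 7603 with all UMIs. Of the 20 most abundant genes 15 to 20 were kept, and 44 to 46 GO1 cells stayed nearest to GO1. The median GO1 cell, with 110146 UMIs, gives about 1 UMI for a gene at 10 CPM, so absence from a single cell is not shown at this depth.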
